A study of Drosophila melanogaster with 2 samples.

Results

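Of the 3894 reproducible binding sites deposited for the Drosophila melanogaster protein CG1620, 1169 (30.02%, exact binomial 95% interval 28.6 to 31.5%) lay at divergent promoters of coding genes. A site was counted as such when its summit, the deposited position of strongest signal within a peak, was within 500 bp of annotated transcription start sites (TSSs) of at least 2 protein-coding genes on opposite strands, in the Ensembl release 115 annotation of the dm6 (release 6) genome. Among the reproducible sites, position and annotation alone chose these peaks, and no signal value was used in that choice. The reproducible set itself had been thresholded before deposition, and its lowest pooled signal was 70.0. The material was whole adult females, of unknown age, from 1 transgenic line that carries CG1620 with eGFP at its C terminus, immunoprecipitated with an antibody to GFP from sonicated chromatin of 200 to 800 bp. The samples form 1 group, made of biological replicates 2 and 3, each with its own biosample; replicate 1 was not analysed here. No untagged or treated group was analysed here, so no condition was compared. Whole animals mix all tissues, and the tissue in which a site is bound cannot be told apart.

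In a divergent promoter, a pair of genes is transcribed away from a shared stretch of upstream DNA, each from its own start site. Such head-to-head pairs are common in the compact Drosophila genome and often join broadly expressed genes, such as those of ribosomes, mitochondria, RNA processing and the nuclear pore. Several core promoter elements are known from this class in flies. They include the DNA replication-related element (DRE), read by Dref and by the insulator protein BEAF-32, and Ohler motifs 1 and 7, of which motif 1 is bound by M1BP.

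The DNA between both start sites is shown for the 7 strongest pairs among the members on arms 3L and 3R with 30 to 300 bp between the TSSs, a summit between them and no annotated exon in that stretch. Each run reads from the first base after the TSS of the minus-strand gene, named first, to the last base before the TSS of the plus-strand gene. The sequence is that of the RefSeq release 6 assembly. Capitals mark matches, on either strand, to CGATA (the core of the DRE), motif 1 (GGTCACACT), motif 7 (CATCNCTA), the E-box CAGCTG and the 7-mer AACCCCC.
Tcs5 and CHMP2B (dm6, chr3L:5139396-5139618, plus strand): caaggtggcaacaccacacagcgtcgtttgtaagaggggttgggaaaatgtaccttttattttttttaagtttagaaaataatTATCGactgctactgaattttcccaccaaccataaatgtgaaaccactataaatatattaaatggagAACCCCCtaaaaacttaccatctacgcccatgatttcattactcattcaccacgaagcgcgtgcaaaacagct
Atat and Shc (dm6, chr3L:9426759-9427009, plus strand): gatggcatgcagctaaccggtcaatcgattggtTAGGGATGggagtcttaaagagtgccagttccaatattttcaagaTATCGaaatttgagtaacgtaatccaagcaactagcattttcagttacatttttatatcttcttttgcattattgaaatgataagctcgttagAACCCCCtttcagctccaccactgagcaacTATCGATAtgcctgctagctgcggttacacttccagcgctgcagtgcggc
RpS27 and Nup37 (dm6, chr3R:25247515-25247657, plus strand): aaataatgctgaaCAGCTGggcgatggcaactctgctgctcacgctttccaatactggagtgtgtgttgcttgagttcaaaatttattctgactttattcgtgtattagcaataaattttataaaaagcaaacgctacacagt
Art3 and mRpS10 (dm6, chr3R:15229409-15229664, plus strand): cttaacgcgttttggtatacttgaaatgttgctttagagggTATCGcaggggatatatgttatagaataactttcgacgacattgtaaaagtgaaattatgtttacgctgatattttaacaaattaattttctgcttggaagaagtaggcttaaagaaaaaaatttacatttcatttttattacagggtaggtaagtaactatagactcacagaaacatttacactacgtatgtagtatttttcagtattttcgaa
Lon and PIG-F (dm6, chr3L:19612200-19612454, plus strand): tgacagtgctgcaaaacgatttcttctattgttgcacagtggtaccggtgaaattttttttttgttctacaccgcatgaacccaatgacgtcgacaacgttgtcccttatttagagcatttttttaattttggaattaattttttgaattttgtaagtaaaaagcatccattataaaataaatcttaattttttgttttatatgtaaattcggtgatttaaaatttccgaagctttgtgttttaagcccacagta
RpL34b and CG8132 (dm6, chr3R:9401227-9401494, plus strand): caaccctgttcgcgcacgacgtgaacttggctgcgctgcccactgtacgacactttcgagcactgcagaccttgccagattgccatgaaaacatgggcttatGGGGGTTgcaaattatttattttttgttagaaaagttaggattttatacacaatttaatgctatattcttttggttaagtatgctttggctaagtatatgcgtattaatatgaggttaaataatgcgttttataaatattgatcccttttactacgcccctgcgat
Mkk4 and SLIRP2 (dm6, chr3R:8650797-8651083, plus strand): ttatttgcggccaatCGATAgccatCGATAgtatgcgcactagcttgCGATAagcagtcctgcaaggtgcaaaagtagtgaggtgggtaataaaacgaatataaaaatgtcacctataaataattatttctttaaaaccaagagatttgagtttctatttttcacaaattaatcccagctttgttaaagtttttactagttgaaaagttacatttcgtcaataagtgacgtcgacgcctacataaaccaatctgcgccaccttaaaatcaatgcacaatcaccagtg
The summit fell on base 114 of the Tcs5 and CHMP2B run, base 135 of Atat and Shc, base 12 of RpS27 and Nup37, base 123 of Art3 and mRpS10, base 97 of Lon and PIG-F, base 74 of RpL34b and CG8132 and base 167 of Mkk4 and SLIRP2. In 5 of these 7 stretches the summit was at most 31 bp from the midpoint, and at RpS27 and RpL34b it was 60 and 60.5 bp away, on the side of the ribosomal protein gene. The G+C content of the whole stretch was 38.1% between Tcs5 and CHMP2B, 43.0% between Atat and Shc, 30.1% between Art3 and mRpS10 and 30.6% between Lon and PIG-F.

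The 1169 peaks differed in how many genes they touched. Exactly 2 coding genes had a start site within 500 bp at 1112 of them, 3 at 51, and more at 6, with at most 10 coding genes at 1 peak. These 10 are annotated entries that all bear the name pre-mod(mdg4) with a suffix, so they need not be 10 separate genes. At 1150 peaks the nearest start site of each strand faced away from the other (head to head). At the other 19 peaks the 5′ ends of the genes overlapped, by 2 to 482 bp. A non-coding gene also had a start site in the window of 18 peaks. The peaks belonged to 1061 distinct nearest pairs. Of these pairs, 108 held more than 1 peak, with neighbouring summits at a median distance of 204.5 bp and never less than 199 bp apart, where the median peak was 400 bp wide. Some neighbouring peaks therefore shared a candidate of a replicate list: 52 did in replicate 2 and 102 in replicate 3, so their replicate values are not independent. At the edge of the rule, the peaks of Ptp61F and CG9166 (signal 143) and of Vha100-2 and Vti1b (145) had their farther TSS at 500 bp, while those of cyr and CG2116 (87.2) and of Spn27A and CG34310 (146) lay just outside, at 501 and 503 bp.

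The annotation held 2667 head-to-head pairs of coding genes with at most 1000 bp between their start sites, and 1134 of them (42.5%, 40.6 to 44.4%) had a reproducible peak near both. A promoter peak was found at 48.4% of the 5052 coding genes in such pairs (47.0 to 49.8%), against 13.7% of the 8893 other coding genes (12.97 to 14.4%). A single peak can count for both genes of a pair, which can raise the first share. The genes of a pair are therefore not independent, although the intervals take them as such. The peaks under study touched 2185 coding genes, which is 15.7% of all 13945 and includes 2175 (43.1%) of the genes in pairs. The share of pairs with a peak near both start sites was 49.7% at a spacing of 1 to 100 bp, 42.6% at 101 to 200 bp, 60.7% at 201 to 300 bp, 57.0% at 301 to 400 bp and 40.8% at 401 to 600 bp. The intervals at 201 to 300 bp (56.4 to 64.8%) and at 101 to 200 bp (37.4 to 47.9%) did not overlap. Beyond 600 bp the share was 5.90% at 601 to 800 bp and 1.04% at 801 to 1000 bp, where a single summit has little or no room to lie within 500 bp of both. A peak near either gene was present at 42.1% and 39.4% of these widest pairs, so the low shares beyond 600 bp cannot be told apart from this limit of the rule.

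The median spacing of the head-to-head members was 284 bp (interquartile range 194 to 384 bp, range 1 to 849 bp, n = 1150). The spacing of the annotated pairs without such a peak had a median of 377 bp (184 to 650 bp, n = 1533). A spacing of 201 to 400 bp was found at 606 members (51.8%), against 942 annotated pairs (35.3%). Annotated pairs over 600 bp apart, which the rule can hardly call, enter both the 35.3% and the median of 377 bp. Members are peaks, so some pairs count more than once among them. The closest members were Atg6 and Pisd, 1 bp apart, where the summit lay 25 bp from the nearer start site and the pooled signal was 70.5. Atg6 is a subunit of the autophagy lipid kinase complex and Pisd makes phosphatidylethanolamine. CG3032 and CG4593, and CG7246 and HP1b, were 6 bp apart and had signals of 229 and 133. SerRS and CG17260 were 8 bp apart with a signal of 227. The widest was Atg16 and Prtl99C, 849 bp apart, whose summit lay 22.5 bp from the midpoint at a signal of 115. RpS5a and Chchd2 were 737 bp apart with a signal of 198, CG2246 and CG31021 717 bp with 113, caly and CG42837 709 bp with 117, and stwl and CG3919 687 bp with 96.5. At all 5 of the widest pairs the summit lay between the start sites, which the rule requires of any pair over 500 bp apart. At these 4 closest it lay outside, where 1 to 8 bp leave almost no room for a summit.

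**Figure D1:**
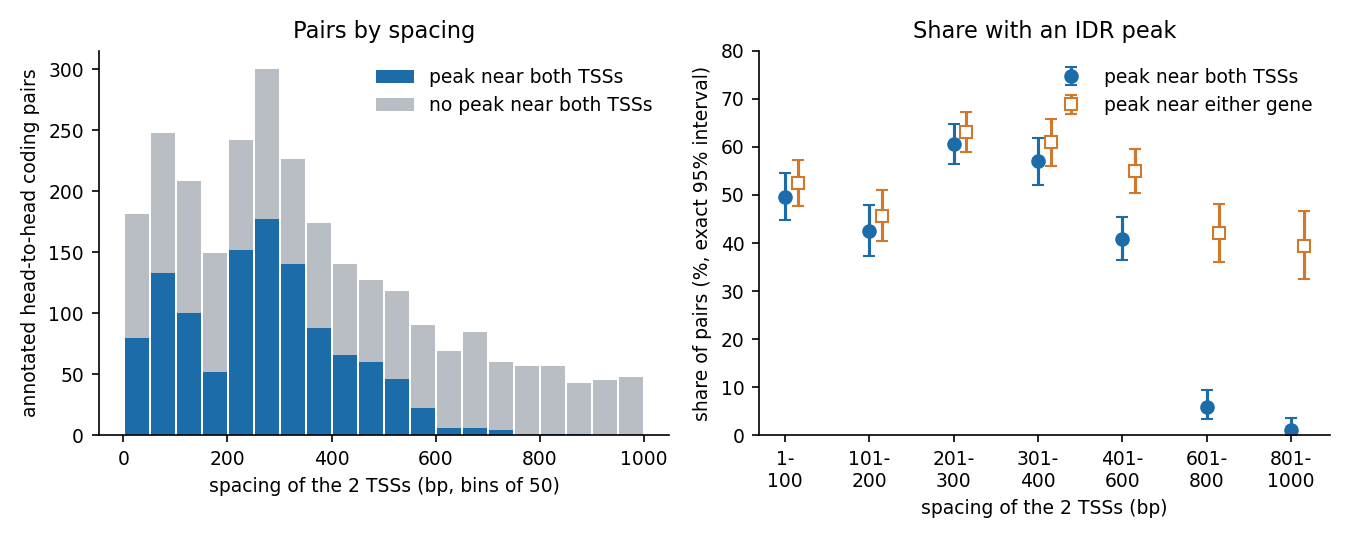
Left, annotated head-to-head coding pairs by the spacing of their TSSs in bins of 50 bp; blue is the number with a reproducible peak near both TSSs and grey the number without. Right, the share of pairs with a peak near both TSSs (circles) or near either gene (open squares) by spacing, with exact 95% intervals; the first is highest, at 60.7%, for 201 to 300 bp and drops to 1.04% for the widest pairs.

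The summit lay between the start sites in 971 of the 1150 head-to-head members (84.4%, 82.2 to 86.5%). Its distance was 65 bp to the nearer TSS (median; interquartile range 35 to 104 bp), 211.5 bp to the farther one and 72 bp to the midpoint. Of these 971 summits, 515 were nearer the plus-strand gene. The summit was upstream of the nearer TSS in 83.8% of members (81.6 to 85.9%), against 78.3% of the 1665 promoter peaks with a single coding gene (76.2 to 80.2%). These single-gene peaks lay a median of 83 bp from their TSS. By annotation, 67.6% of the divergent promoter summits were in no transcript, 23.0% in an exon outside the coding sequence, 8.90% in an intron and 0.513% in coding sequence. For single-gene promoter peaks these shares were 48.8%, 26.2%, 23.9% and 1.08%.

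The position of the summit changed with the spacing. At pairs 1 to 100 bp apart the summit was between the start sites in 49.4% of 162 members, and it was 25 bp (median) from the nearer TSS. At 101 to 200 bp it was between them in 102 of 136 members, and at 201 to 300 bp in 89.4% of 348. Wider pairs had 92.6% (301 to 400 bp, n = 258), 96.9% (401 to 600 bp, n = 225) and 100% (over 600 bp, n = 21). Beyond 500 bp the rule admits only summits between the start sites, which fixes the 100% and part of the 96.9%. The distance to the nearer TSS grew little from 201 bp on, with medians of 73 bp at 201 to 300 bp, 78 bp at 301 to 400 bp and 90 bp at 401 to 600 bp. The distance to the midpoint kept growing over the same classes, with medians of 54.75, 100.5 and 143.5 bp. Accordingly, 46.6% of summits lay within 50 bp of the midpoint at 201 to 300 bp, 22.9% at 301 to 400 bp and 12.4% at 401 to 600 bp. The distance to the midpoint can grow with the spacing alone. For summits between the start sites, the distance to the nearer TSS was therefore also read as a fraction of the spacing. Its median was 0.306 at 201 to 300 bp, 0.232 at 301 to 400 bp and 0.197 at 401 to 600 bp. Relative to the spacing, summits at 401 to 600 bp thus lay nearer to a start site than those at 201 to 300 bp. Pairs with more than 1 peak, 108 among all members, enter these classes with each summit. Such summits were at least 199 bp apart, so 2 of them cannot both lie within 50 bp of the same midpoint. With only the strongest peak of each pair, the median distance to the midpoint over all spacings was 67.75 bp. The classes were not read with 1 peak per pair, so the part of these peaks in the trend was not tested. The 21 pairs over 600 bp apart had summits 69.5 bp from the midpoint, where the rule itself leaves only the central stretch.

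**Figure D2:**
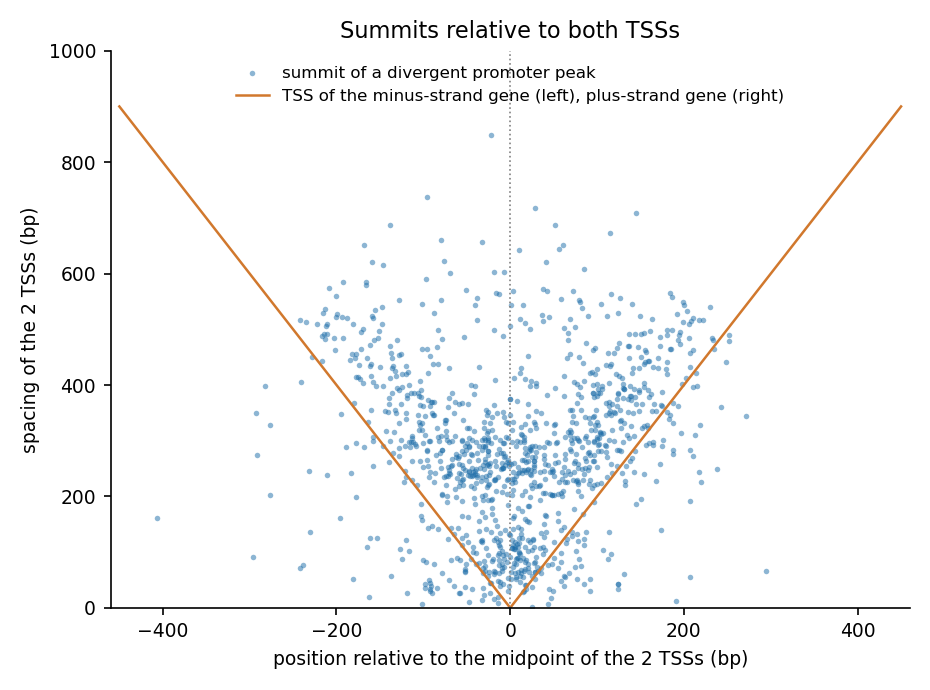
Each point is the summit of a head-to-head member, placed by its distance from the midpoint of both TSSs (x, bp) and the spacing of the TSSs (y, bp); orange lines mark the TSS of the minus-strand gene (left) and of the plus-strand gene (right). Summits lay a median of 54.75 bp from the midpoint at spacings of 201 to 300 bp and 143.5 bp at 401 to 600 bp. This distance can grow with the spacing alone.

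Each member was also looked up in the list of each replicate. A candidate overlapping by at least 50% was present in both replicate lists for 1133 members (96.9%), and for 1595 single-gene promoter peaks (95.8%). The reproducible set was made from these same replicates, so these shares were largely set by that choice and do not measure how certain a peak is. Replicate 2 lacked one for 5 members and replicate 3 for 31. Across members, the signals of the replicates correlated with a Spearman rho of 0.760 and a Pearson r of 0.777 on the log2 scale (n = 1133, a description across peaks that share both libraries). The summits called in the replicates differed by a median of 28 bp (interquartile range 11 to 60 bp). Both replicate summits were between the start sites in 869 of 1115 head-to-head members (77.9%), and both were nearer the same gene in 906 (81.3%).

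The deposited signal value of a peak was scored by the authors against a control and ranks the peaks of 1 list. Divergent promoter peaks had a median signal of 137 in the pooled list (interquartile range 97.4 to 215), against 112 for single-gene promoter peaks (85.6 to 166). In replicate 2 the medians were 98.7 for divergent and 86.4 for single-gene peaks, and in replicate 3 they were 41.7 and 29.8. The ratio of divergent to single-gene medians was therefore 1.23 pooled, 1.14 in replicate 2 and 1.40 in replicate 3, above 1 in each list, while the interquartile ranges overlapped widely in all of them. Divergent promoters made up 41.6% of the 973 strongest reproducible peaks (38.5 to 44.8%), 32.5% of the next 974, 27.2% of the 973 after those, and 18.7% of the 974 weakest (16.3 to 21.3%). Of the 25 strongest peaks 7 were divergent (12.1 to 49.4%), of the 100 strongest 37 (27.6 to 47.2%) and of the 500 strongest 42.2%. These intervals hold the 41.6% of the strongest class, so a change at the very top cannot be told. The strongest peak of all, at 2347, had a single coding gene.

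**Figure D3:**
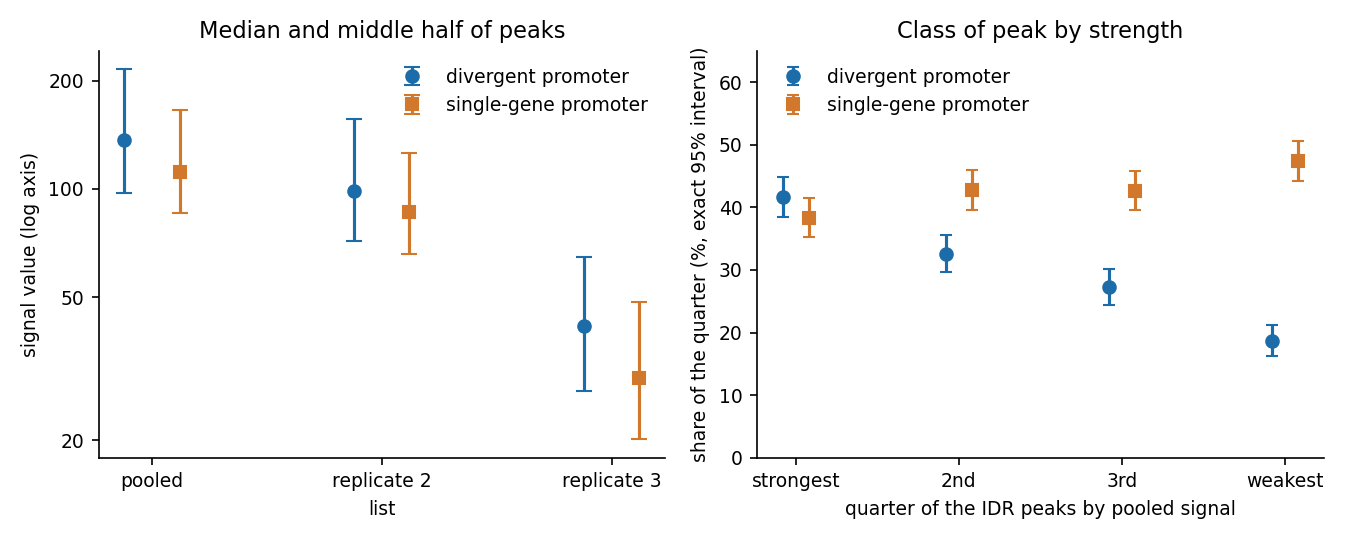
Left, the median signal (points) and interquartile range (bars) of divergent promoter peaks (circles, left of each pair) and single-gene promoter peaks (squares) in the pooled list and in each replicate, on a log axis; the divergent median is higher in each list. Right, the share of divergent and of single-gene promoter peaks in 4 classes of the reproducible peaks of like number, ordered by pooled signal, with exact 95% intervals; the divergent share is 41.6% in the strongest class and 18.7% in the weakest.

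Among the members, signal varied with the spacing and with the position of the summit. Pairs 201 to 300 bp apart had a median of 163, against 129 at 1 to 100 bp, 124 at 101 to 200 bp, 139 at 301 to 400 bp and 121 at 401 to 600 bp. This spacing was also the strongest class in each replicate, with 120 in replicate 2 and 50.5 in replicate 3. Summits within 50 bp of the midpoint had a median signal of 153 (n = 441), against 121 for those over 100 bp away (n = 404). Peaks with the summit between the start sites had 140 and those outside had 120. These classes count every peak, so a pair with more than 1 enters with its weaker peaks too. Signal by position was not read with 1 peak per pair, so a link of position and signal across promoters was not tested. The 19 members with overlapping 5′ ends had a median of 97.0. The strongest of them, Hrd3 and PTPMT1 with 5′ ends overlapping by 218 bp, had a signal of 430 and shares its replicate 3 candidate with a stronger head-to-head peak of the same genes.

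The X chromosome held 189 members, 2L held 210, 2R 223, 3L 232, 3R 311 and chromosome 4 held 4. The share of annotated pairs with a peak near both start sites was similar on the large arms, at 43.9% on the X, 39.3% on 2L, 40.1% on 2R, 43.2% on 3L and 45.7% on 3R, with overlapping intervals. On chromosome 4 it was 3 of 11 pairs.

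The 25 strongest members had pooled signals between 542 and 1321. Each of the 25 was among the 75 strongest candidates of replicate 2 and the 73 strongest of replicate 3. The summit lay between the start sites at 18 of the 25, and within 50 bp of the midpoint at 12. The strongest joined Tcs5, a kinase of the KEOPS complex that modifies tRNAs, and CHMP2B, a subunit of the membrane-cutting ESCRT-III complex, on chromosome 3L. Its signal was 1321 in the pooled list, 918 in replicate 2 and 403 in replicate 3. The start sites, at positions 5139395 and 5139619, are 224 bp apart, and the summit lay 114 bp from Tcs5 and 110 bp from CHMP2B, which is 2 bp from the midpoint.

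The next peaks had lower signals that were closer to each other. Atat, which acetylates alpha-tubulin, and Shc, an adaptor of receptor tyrosine kinases, shared a peak of 935 pooled, 656 in replicate 2 and 266 in replicate 3, with the summit 9 bp from the midpoint. CG5611 and Mtl, a Rac-like GTPase, followed with 911 pooled, 621 in replicate 2 and 283 in replicate 3, 26 bp from the midpoint. Art3, an arginine methyltransferase, and mRpS10, a mitochondrial ribosomal protein, had 890 pooled, 576 in replicate 2 and 309 in replicate 3, 5.5 bp from the midpoint. Pdrg1 and Pal1, a lyase of peptide hormone amidation, had 875 pooled, 628 in replicate 2 and 250 in replicate 3, and the summit stood exactly at the midpoint, 173 bp from each start site. In these pairs, 252 to 352 bp apart, the peak was central.

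Other strong members were one-sided. At RpS27 and Nup37 (899 pooled, 635 in replicate 2, 265 in replicate 3), the summit lay 12 bp from the start of RpS27, a ribosomal protein of the small subunit, and 132 bp from that of the nucleoporin gene Nup37. Mnat9 and CG1792 (585 pooled) had it 3 bp from Mnat9 and 140 bp from CG1792. In 7 of the 25 the summit was outside the pair, and all of these pairs were 27 to 129 bp apart. At Chro and Ssl1 (757 pooled, 530 in replicate 2, 233 in replicate 3) it lay 74 bp downstream of the start of Chro, a chromatin protein of interbands, and 179 bp from that of Ssl1, a TFIIH subunit. At mRpL23 and CG9004 (776 pooled) it lay 45 bp inside mRpL23, and at Ripalpha and RpL7 (717 pooled) 34 bp inside RpL7. Bdp1, a subunit of the RNA polymerase III factor TFIIIB, and CG6565 had 714 pooled, with the summit 7 bp inside CG6565.

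The remaining members of the 25 had signals between 542 and 769. They held genes of several cell functions. Lon, a mitochondrial protease, and PIG-F, an enzyme of GPI anchor synthesis, had 765 with the summit 31 bp from the midpoint. The Elongator subunit gene Elp5 and CG1275 had 721, and the MAP kinase kinase gene Mkk4 and SLIRP2, which encodes a mitochondrial RNA-binding protein, had 657. Hrd3, of ER-associated degradation, and PTPMT1, a mitochondrial phosphatase, had 656. The complex I assembly gene CIA30 and CG7601 had 564. Hs2st, a heparan sulfate sulfotransferase, and RanGAP, the activator of the Ran GTPase, had 560. The widest pair of the 25, mRpS23 and CenG1A at 492 bp, had 681 with the summit 109 bp from CenG1A, an ArfGAP, and 383 bp from mRpS23.

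**Figure D4:**
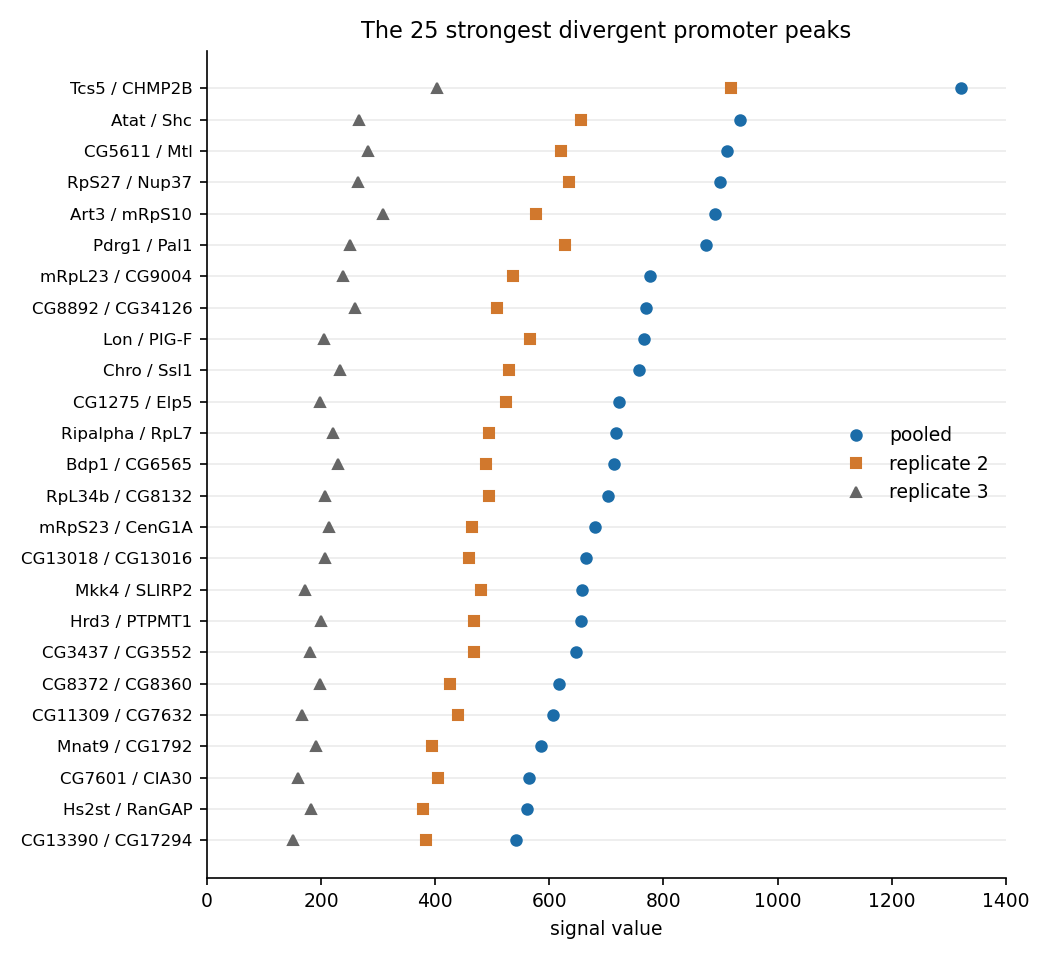
Signal value (x) of the 25 strongest divergent promoter peaks (y, minus-strand gene and plus-strand gene) in the pooled list (circles), replicate 2 (squares) and replicate 3 (triangles). Tcs5 and CHMP2B lead all 3 lists among these 25, at 1321, 918 and 403, and the weakest of the 25 in the pooled list is CG13390 and CG17294 at 542.

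By function, the members held many genes of the gene expression machinery, which are counted here from 30 lists of gene symbols against 15.7% of all coding genes and 43.1% of genes in pairs. The counts are descriptions, and many of these genes are paired. Of cytoplasmic ribosomal protein genes, 35 of 86 (40.7%) were at members, and 35 of the 53 in pairs (66.0%, 51.7 to 78.5%). The strongest were RpS27 (899), RpL7 (717) and RpL34b (703). Of mitochondrial ribosomal protein genes, 35 of 75 (46.7%) were at members, and 35 of the 59 in pairs (59.3%, 45.7 to 71.9%), led by mRpS10 (890), mRpL23 (776) and mRpS23 (681). The median pooled signal was 248 at the cytoplasmic and 140 at the mitochondrial ribosomal protein genes, against 137 over all members. Both groups build ribosomes, for the cytosol and for the mitochondrial matrix. Among genes in pairs, the intervals of 4 of the 22 lists of broadly used genes lay above the 43.1% of all genes in pairs. These were both ribosomal protein lists, chromatin and insulator regulators (63.3%, 48.3 to 76.6%) and glycolysis (5 of 5, 47.8 to 100%). The intervals of the other 18 held 43.1%, with shares between 37.5% (chaperones) and 61.1% (Rab GTPases), among them translation factors at 41.4%, DNA repair at 45.7% and oxidative phosphorylation at 47.9%. A promoter peak of any class was at 74 of 86 cytoplasmic and 41 of 75 mitochondrial ribosomal protein genes. It was at 49 of 73 chromatin and insulator regulators and 8 of 13 glycolysis genes. Peaks at these 4 lists were thus not limited to divergent promoters.

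The side on which the summit lay differed between these groups. At the 39 members with a cytoplasmic ribosomal protein gene on 1 side, the summit was nearer that gene in 29 (74.4%, 57.9 to 87.0%), at a median distance of 63 bp against 196 bp to the other gene. At the 40 members with a mitochondrial ribosomal protein gene it was nearer that gene in 16 (24.9 to 56.7%), at 126.5 bp against 116 bp. The intervals did not overlap, but peaks of 1 pair share their start sites and are not independent. Single genes of both groups overlapped in this distance. It was 12 bp at RpS27, 34 bp at RpL7 and 74 bp at RpL34b, and 45 bp at mRpL23, 134 bp at mRpS10 and 383 bp at mRpS23.

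Genes of transcription and chromatin were at members in similar shares. Of 73 chromatin and insulator regulators, 31 (42.5%) were, led by Chro (757), the histone acetyltransferase gene Gcn5 with ver (468) and brm, the ATPase of the Brahma remodeller, with Arl1 (458). Of 57 genes of RNA polymerases and general factors 22 (38.6%) were, and the strongest that the list names were the TFIIIB gene Brf with sds22 (525), Polr2H (225) and TfIIA-L (220). The list, which goes by symbol patterns and is not complete, does not hold the members Ssl1 (757) and Bdp1 (714). Mediator, which links activators to RNA polymerase II, had 11 of 29 (37.9%), led by MED27 (472), MED30 (382) and MED6 (363).

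RNA processing and transport genes followed. Splicing factors and Sm proteins had 19 of 46 genes at members (41.3%), led by SF2 (296), Sf3b6 (224) and U4-U6-60K (207). Genes of tRNA and rRNA modification had 16 of 38 (42.1%), led by Tcs5 (1321), Elp5 (721) and Elp6 (269). The nuclear pore and nuclear transport had 14 of 34 (41.2%), led by Nup37 (899), RanGAP (560) and the importin gene Kap-alpha3 with Son (510). RNA decay and the exosome had 10 of 28 (35.7%), led by Csl4 (252), which shares its promoter with Nup160, Pop2 (251) and Rrp6 (220).

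Lists of translation, protein turnover, the mitochondrion and glycolysis had shares between 17.4% and 38.5%. Translation factors had 12 of 59 (20.3%), led by eIF1 (526), which pairs with RpL28, eIF4EHP (414) and eIF3h (330), whose start site was the summit itself. Aminoacyl-tRNA synthetases had 11 of 35 (31.4%), led by AsnRS (289), GluProRS (286) and SerRS (227). Proteasome subunits had 12 of 32 (37.5%), led by Rpn5 (336), Rpn6 (247) and Rpt5 (216), and chaperones 9 of 46 (19.6%), led by Hsc70-5 (241), Pfdn6 (187) and Droj2 (162). Oxidative phosphorylation had 23 of 92, with COX6B (291), ND-24 (291) and ND-MWFE (280). Mitochondrial import and assembly had 4 of 23, among them Tim9a (150) and Tom7 (136). Glycolysis had 5 of 13, with Eno (210), Pglym78 (169) and Pgi (125).

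Genes of the cell cycle, repair and membrane traffic were also present. Replication and cell cycle genes had 20 of 66 at members (30.3%), led by dpa (435), a subunit of the MCM helicase, the mitotic kinase gene aurA (326) and dup (315), which loads that helicase. RPA1 and Mcm2, of single-strand DNA binding and the MCM helicase, share 1 promoter at a signal of 153, and it was the only member that joined a pair from the same list. DNA repair had 16 of 45 (35.6%), with mus301 (285), Brca2 (215) and nbs (207). ESCRT and vesicle sorting had 13 of 35 (37.1%), with CHMP2B (1321), Vps33B (524) and Vps36 (257). Rab GTPases had 11 of 33 (33.3%), with Rab8 (333), Rab39 (272) and Rab27 (180), and the proton pump V-ATPase 8 of 33 (24.2%), with Vha36-1 (384), Vha55 (355) and Vha100-2 (244). Of the piRNA and oogenesis genes, 7 of 32 (21.9%) were at members, with tral (440), orb (191) and Panx (105).

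Lists of tissue-restricted genes were rarely found. Members included 2 of 230 chemosensory receptor genes (0.870%), 2 of 140 cuticle and chitin genes (1.43%), 2 of 81 testis and accessory gland genes (2.47%), 1 of 45 immune genes (2.22%) and 1 of 25 muscle genes. None of 48 digestive enzyme genes was there, which allows a share of up to 7.40% by the exact interval, none of 32 neuronal genes (up to 10.9%) and none of 19 chorion, vitelline and yolk genes (up to 17.6%). The share of genes in head-to-head pairs was also lower in these 8 lists than the 36.2% of all coding genes, between 11.4% (cuticle and chitin) and 33.3% (digestive enzymes). Of the genes in pairs alone, 2 of 37 chemosensory (interval 0.661 to 18.2%), 2 of 16 cuticle and none of 16 digestive enzyme genes (up to 20.6%) were at members, against 43.1% of all genes in pairs. The intervals of 5 of the 8 lists lay below that value, and those of the testis, muscle and chorion lists held it. At 7 of the 8 genes found, the summit was nearer the partner gene. It lay 352 bp from Sfp26Ad, a seminal fluid protein gene, and 13 bp from its partner Gpdh1, a glycerol-3-phosphate dehydrogenase gene, at a signal of 316. It lay 288 bp from the receptor gene Ir60e and 34 bp from CG13585 at 311, and 470 bp from Drsl6 and 28 bp from the spectrin gene kst at 71.6. The exception was the tropomyosin gene Tm1, 10 bp from the summit at a signal of 96.6, where replicate 3 had 7.47.

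Genes named only by a CG number were 658 of the 2185 genes at members, against 6097 of all 13945 coding genes. Of the genes at members, 2175 were in head-to-head pairs. Such names were not counted among all genes in pairs, so this difference cannot be told apart from pairing.

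The DNA at the summits was rich in A and T. The 101 bp around a divergent promoter summit had a median G+C content of 36.6% (interquartile range 29.7 to 43.6%), against 41.6% at single-gene promoter summits (33.7 to 48.5%) and 41.6% in the windows just upstream of all annotated coding TSSs. In members with start sites 201 to 400 bp apart (n = 606), the G+C content measured from each TSS was 45.7% in the first 25 bp upstream and fell to 25.8% at 125 to 150 bp upstream, near the middle of the pair. Pairs with a peak near both start sites had a median of 35.2% in the 301 bp around the midpoint, and pairs without had 34.6%.

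Motifs were counted on both strands in the 101 bp around each summit. The windows of all coding promoters hold the 101 bp upstream of each TSS and leave out matches downstream of it, so they are placed unlike the summit windows. The DRE (TATCGATA) was present at 7.10% of divergent promoter summits (5.70 to 8.73%), against 5.17% of single-gene promoter summits and 5.204% of all coding promoters. Its core CGATA, which every DRE match contains, was at 33.9%, 28.5% and 25.98% of these windows. Motif 7 (CATCNCTA) was at 5.47% of divergent, 4.20% of single-gene and 2.35% of all promoter windows, and motif 1 (GGTCACACT) at 3.25%, 2.76% and 1.95%. The Initiator letters TCAGTT were at 5.13%, 6.91% and 9.09%. The GAGA repeat (GAGAGAG) was at 0.342% of divergent, 2.58% of single-gene and 3.49% of all promoter windows. The letters TATAAA were at 18.7%, 12.6% and 18.2%. They also occur by base composition in A+T-rich DNA, and in pairs 201 to 400 bp apart their matches had a median place 104.5 bp upstream of a TSS.

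The remaining motifs searched differed less. The E-box CAGCTG was at 7.70% of divergent summits, 7.99% of single-gene summits and 7.64% of all promoters, and CACGTG at 1.37%, 1.38% and 1.05%. The letters CCAAT were at 18.7%, 17.4% and 18.5%, motif 6 (GTATTTTT) at 3.42%, 2.52% and 3.27%, the E2F letters TTGGCGC at 1.80%, 2.34% and 2.18%, and the CTCF letters AGGTGGC at 1.80%, 2.52% and 1.34%. The letters AAGGTTA, the CRE TGACGTCA, the NRF letters GCGCATGC and the ETS letters CCGGAAGT were each at under 1% of divergent summits.

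The motif matches stood close to the start sites. In members with start sites 201 to 400 bp apart, DRE matches had a median place 30 bp upstream of a TSS, and 64.4% of them lay 0 to 75 bp upstream. Motif 7 matches had a median of 6 bp upstream and motif 1 matches a median of -2.5 bp, just downstream. Measured from the summit, 34 DRE matches lay within 50 bp and 41 at 50 to 100 bp, and for CGATA these counts were 301 and 305. The matches thus did not gather at the summits. The Mkk4 and SLIRP2 run is an example, with all 3 CGATA matches on the Mkk4 side and the summit at base 167.

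**Figure D5:**
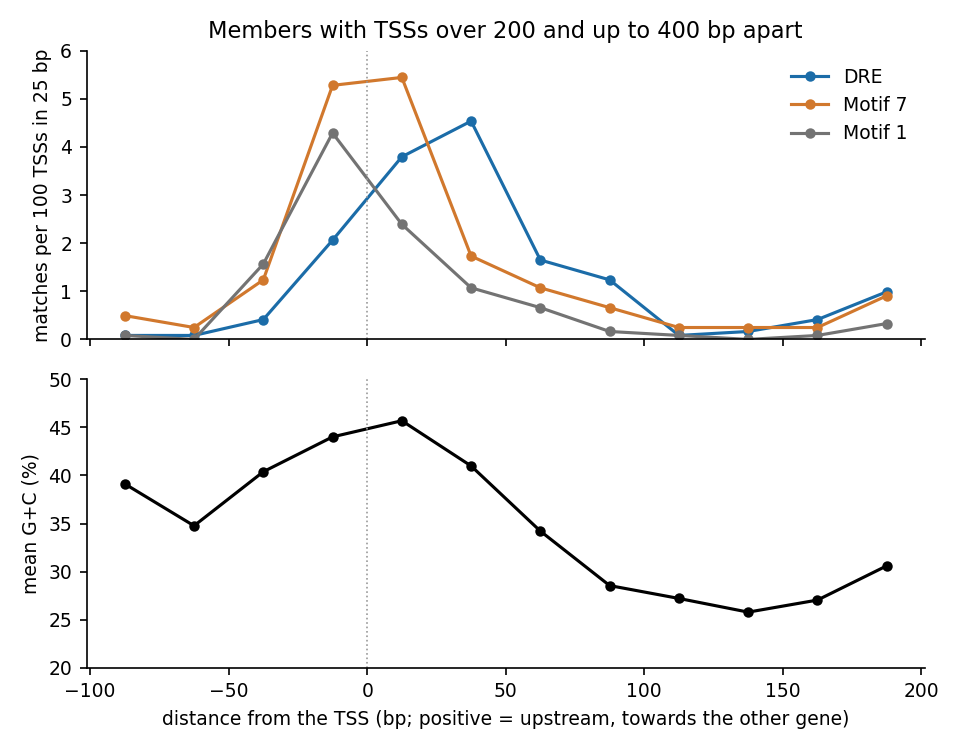
Members with TSSs 201 to 400 bp apart (606 members, both TSSs of each): top, matches per 100 TSSs in 25 bp bins for the DRE, motif 7 and motif 1; bottom, mean G+C content (%), both by distance from the TSS (bp, positive upstream). DRE matches peak 25 to 50 bp upstream at 4.54 per 100 TSSs, where the G+C content is 40.98%, and the G+C content is lowest, 25.8%, at 125 to 150 bp upstream.

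The share of members with some motifs varied with their signal. The 7-mer AACCCCC was within 50 bp of the summit at 3 of the 25 strongest (Tcs5 and CHMP2B and Atat and Shc, each 40 bp from the summit, and RpL34b and CG8132, 32 bp), at 2 of the next 75, 1 of the next 200 and 3 of the last 869. The interval was 2.55 to 31.2% for the first class, and the share was 0.345% (0.0713 to 1.01%) in the last. Over all members it was at 0.770%, against 0.661% of single-gene summits and 0.670% of all promoters. CGATA went the other way, at 4 of the 25 strongest (4.54 to 36.1%), 22.7% of the next 75, 25.5% of the next 200 and 37.3% of the last 869 (34.1 to 40.6%). The DRE was at none of the 25 strongest, which allows up to 13.7% by the exact interval, and at 6 of the next 75, 15 of the next 200 and 62 of the last 869. The 7-mer was noticed in these data, so its place at the top is a description.

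Pairs with and without a peak were also compared over the 301 bp around their midpoints. The DRE was in 17.6% of the 1134 pairs with a peak near both start sites, against 10.2% of the 1533 without, and motif 7 in 13.4% against 5.48%. Initiator letters were in 16.3% against 23.9% and the GAGA repeat in 1.68% against 4.17%. Since pairs without a peak were more widely spaced, the same was read within classes. No intervals were made there, so whether a difference within a class exceeds counting error was not tested. At 201 to 300 bp the DRE was in 20.7% of pairs with and 15.96% without, and motif 7 in 23.1% with and 7.98% without. At 101 to 200 bp the DRE was in 19.1% with and 14.6% without and motif 7 in 15.1% with and 6.83% without, and at 301 to 400 bp these were 19.3% against 12.8% and 7.46% against 4.07%. The differences were small in the closest and the widest of these classes. At 1 to 100 bp the DRE was in 23.5% of pairs with and 22.2% without and motif 7 in 14.1% against 11.1%, and at 401 to 600 bp the DRE was in 4.12% against 4.27% and motif 7 in 3.09% against 2.85%.

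Among all 8-mers, those with the largest difference in share between pairs with and without a peak were read off as a description. ATCGATAG, which overlaps the DRE, was in 16.1% of pairs with and 8.09% without. CAACACTG was in 9.96% of pairs with and 2.15% without, and AGTGTTGG, which overlaps its reverse complement, in 8.02% with and 1.17% without. CAGCCCTG was in 7.58% with and 1.57% without. At 1 to 100 bp of spacing, CAACACTG was in 20.2% of pairs with a peak against 3.70% without. The shares were 9.87% against 4.88% at 101 to 200 bp and 9.12% against 2.35% at 201 to 300 bp. They were 7.46% against 1.16% at 301 to 400 bp and 3.09% against 1.42% at 401 to 600 bp. This 8-mer was picked by its difference over these same pairs, so the classes are not a separate check. At the summits themselves, CAACACTG was at 5.73% of divergent and 5.53% of single-gene promoter peaks, against 1.71% of all coding promoters. The window of all promoters ends at the TSS, while a summit window can reach downstream of it. In members 201 to 400 bp apart, 45 of 103 CAACACTG matches lay 0 to 25 bp downstream of a TSS. The part of window placement in this contrast was not tested.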

How the data were processed

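The deposited files are peak lists on dm6 from ChIP-seq of 2 replicates: 1 list of candidates per replicate, 1 pooled list, and the optimal set thresholded by the irreproducible discovery rate (IDR) from both, per the text files deposited beside them. The value used is the deposited signal of each peak, scored by the authors against 1 control and not scaled between lists. The sources used here do not give the aligner, the peak caller, the IDR threshold, what the control was or any version. Read depth is unknown, so no error can be given for a single signal; exact binomial (Clopper-Pearson, 95%) intervals for shares cover counting error only. The dm3 lists were not used here.

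Python 3.11.15, numpy 2.4.6, scipy 1.17.1 and matplotlib 3.10.9 were used. Repeated lines were removed. Start sites were the 5′ ends of all transcripts of protein-coding genes (Ensembl release 115), and sequence was the RefSeq assembly of the same genome; 99.8% of 30593 annotated start codons read ATG in it. For each member the nearest TSS of each strand gave the pair. A replicate value is that of the strongest candidate overlapping by at least 50% of either peak. Shares of all promoters refer to the 101 bp upstream of each TSS. The members, the 30 gene lists and the 18 motifs were chosen with earlier results of these data known, and symbols that matched a list by spelling but not by function were taken out afterwards. Named genes are the 25 strongest members, the 3 strongest of each list and the 5 closest and 5 widest pairs; 1 of the closest is not reported here. With 1 group, no test was made. The rule was tested on simulated positions. Alternatives were other windows, TSS sets, overlaps, the 1947 strongest peaks and each replicate alone.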

Additional observations from a re-analysis of the deposited data

How the results depend on the processing

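With a window of 250 bp, 700 peaks met the rule, 27.9% of pairs had a peak near both start sites, the median spacing was 227 bp and the median distance to the midpoint 38.75 bp. With 1000 bp the share of pairs was 50.8%, the spacing 319 bp, the distance to the midpoint 95.5 bp and the share of summits between the start sites 82.0%; both windows set how far apart a pair may be. With only the outermost 5′ end of each gene, the spacing was 276 bp, 79.2% of summits lay between the start sites, and the median distances were 78 bp to the midpoint and 70 bp to the nearer TSS. The 1947 strongest reproducible peaks held 722 members and 28.0% of pairs, with a median signal of 191, 63 bp to the midpoint, 70.5 bp to the nearer TSS and a G+C content of 35.1%. Keeping the strongest peak of each pair, a choice made after seeing the data, gave 67.75 bp to the midpoint. Leaving out either replicate, with as many of the strongest candidates of the other, gave 1124 to 1145 members, 282 to 290 bp of spacing, 71.5 to 73.5 bp to the midpoint, 65 to 71 bp to the nearer TSS and a median signal of 39.8 to 99.0; the lists are on different scales. The ratio of divergent to single-gene signal, also added after seeing the data, was between 1.13 and 1.33 in all of these settings. Members with a candidate in both replicates were 98.5% at any overlap and 87.0% at 80%. CGATA was at 21.7% of summits within 25 bp and 53.3% within 100 bp, by the length of the window. No paired analysis was possible because there is 1 group. The lists hold no read counts, so depth sets an unknown limit on weak peaks.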
